A study of Mus musculus with 14 samples.

Results

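The p53-induced death genes described here were 9 mouse genes that p53 is known to switch on and whose products take part in cell death: Bbc3, Bax, Pmaip1, Fas, Tnfrsf10b, Eda2r, Perp, Aen and Trp53inp1. They were taken by gene symbol from both deposited gene tables, where each of the 9 symbols named 1 of 45706 rows. RNA sequencing compared cells with and without Prmt5, an arginine methyltransferase that symmetrically dimethylates histones and splicing proteins, in 14 libraries from mouse blood-forming cells. All animals carried floxed Prmt5 alleles (PRMT5fl/fl). In the fetal liver groups, taken at E14.5 and sorted by Ter119, a surface antigen of maturing red cells, KO animals also carried Vav-cre, a recombinase driven across the blood system, and WT animals carried no named Cre. Ter119neg KO, Ter119neg WT, Ter119pos KO and Ter119pos WT each held 2 libraries. Mice 1 and 2 gave the KO libraries A and B of both fractions, mouse 4 gave WT library B of both, mouse 3 gave Ter119neg WT library A and mouse 5 gave Ter119pos WT library A. The LK groups were sorted LK cells, 3 libraries each with the letters A, B and C. LK KO cells came from Mx1-cre;PRMT5fl/fl mice, in which Cre is induced by interferon, and LK WT cells from PRMT5fl/fl mice. LK cells were collected 7 days after injection of poly(I:C), which induces interferon. No mice and no adult ages are named for LK, so p-values for LK cover the spread among its libraries only, which may be technical.

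The protein p53 is a transcription factor held low by Mdm2 and stabilised when DNA is damaged or other stress signals arrive. Among its target genes are those of 2 death routes. In the mitochondrial route, BH3-only proteins such as the products of Bbc3 (Puma) and Pmaip1 (Noxa) neutralise survival members of the Bcl2 family, and Bax then permeabilises the outer mitochondrial membrane. In the receptor route, Fas and Tnfrsf10b (the mouse TRAIL receptor) carry a death domain that recruits Fadd and Casp8. Eda2r encodes a receptor of the same superfamily that binds the A2 form of ectodysplasin. Perp encodes a membrane protein of desmosomes linked to p53-dependent apoptosis, Aen an apoptosis-enhancing nuclease, and Trp53inp1 a stress-induced nuclear protein that cooperates with p53 and takes part in autophagy. In blood-forming cells this program is known for removing damaged stem and progenitor cells.

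Promoter sequence was at hand for 5 of the 9 genes, in 8 windows of 300 bases (250 before and 50 after a RefSeq start, GRCm38.p6). The windows were searched on both strands, which is the same search because the motif is palindromic, for the p53 consensus: 2 half-sites of 10 bases with a spacer of 0 to 13 bases, holding C and G at the core positions of each half-site. Stretches are shown for the 3 genes with the closest matches. They are read 5′ to 3′ on the gene's strand, with the 2 half-sites in capitals. The Bbc3 stretch lies at chr7:16309333-16309582 (plus strand), in an intron of the longer transcript Bbc3-204, and its match starts 97 bases before the start site. The Bax stretch lies at chr7:45466899-45467148 (minus strand), outside annotated exons, and its match starts 201 bases before the start site. For Aen only the match is shown, at chr7:78895937-78895956 (plus strand), which is within the first exon of Aen-201, Aen-203, Aen-204 and Aen-206.
Bbc3: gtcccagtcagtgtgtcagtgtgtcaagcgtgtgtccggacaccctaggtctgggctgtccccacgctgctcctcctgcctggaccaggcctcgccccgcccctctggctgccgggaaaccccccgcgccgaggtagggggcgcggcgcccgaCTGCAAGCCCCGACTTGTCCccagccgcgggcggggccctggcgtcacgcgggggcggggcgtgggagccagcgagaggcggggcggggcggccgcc
Bax: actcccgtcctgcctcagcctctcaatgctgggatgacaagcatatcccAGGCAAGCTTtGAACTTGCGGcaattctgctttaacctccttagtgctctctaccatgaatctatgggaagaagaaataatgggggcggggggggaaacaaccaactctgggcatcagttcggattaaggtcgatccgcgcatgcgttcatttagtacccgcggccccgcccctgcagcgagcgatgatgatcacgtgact
Aen: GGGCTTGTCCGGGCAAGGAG
The Bax match departed from the consensus at 2 bases, with a spacer of 1 base, and the Bbc3 and Aen matches departed at 3 bases with no spacer. With any spacer of 0 to 13 bases, 4.09% of all 32851 windows held a match with at most 2 mismatches and 15.6% one with at most 3. In the Fas and Eda2r windows the closest matches departed at 5 and 6 bases. A half-site without mismatch was found in the Bax window and in both Aen windows, against 8.36% of all windows. These matches are descriptions of the letters in the windows and not of binding.

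Total expected counts ranged from 19514550 to 30976961 per library. Prmt5 itself was lower in KO than in WT in each population. It fell from 81.0 ± 25.5 to 11.5 ± 0.903 CPM (TMM-scaled counts relative to library size, mean ± SD, n = 3 each) in LK, from 52.0 ± 0.338 to 4.38 ± 0.179 CPM (n = 2) in Ter119neg and from 15.7 ± 2.79 to 4.28 ± 0.903 CPM (n = 2) in Ter119pos. Globin mRNA made up 16.4% to 25.1% of counts in Ter119pos and 0.0679% to 0.183% in Ter119neg, which matched their labels. All 10 progenitor markers were detected in every group, so detection does not test the LK label. Their sum was 9063 to 11820 CPM in LK KO and 15080 to 31490 CPM in LK WT. It was 760.5 to 1184 CPM in Ter119neg and 51.87 to 91.69 CPM in Ter119pos. In the LK libraries of letter B, 18S ribosomal RNA took 18.04% (WT) and 23.4% (KO) of counts, against at most 0.180% in the other LK libraries. Macrophage markers (12 genes) summed to 34.0 to 37.3 CPM in Ter119neg KO and 144.2 to 153.3 CPM in Ter119neg WT, and to 46.3 to 60.0 against 45.7 to 82.9 CPM in Ter119pos. Granulocyte markers (10 genes) summed to 688.4 to 6469 CPM in LK KO and 913 to 34030 CPM in LK WT. In bulk samples, fewer cells of a type and less RNA per cell cannot be told apart, and the part of these markers in the results below was not tested.

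Loss of Prmt5 went with higher levels of the death genes in each of the 3 populations. In Ter119pos and in Ter119neg all 9 rose, and in LK 5 rose (Eda2r, Tnfrsf10b, Trp53inp1, Pmaip1 and Aen), while none fell. With the letter kept as a block in LK, 9 of 9 rose. The labels do not say what LK libraries of the same letter share. The block was chosen because such libraries deviated together in these data. The median log2 fold change of the 9 genes was 2.35 in LK, 1.98 in Ter119neg and 3.55 in Ter119pos, against -0.09, 0.01 and -0.04 over all genes tested.

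Counts of risen members can be read against the share of all genes that rose by the same rule, edgeR's quasi-likelihood test with a Benjamini-Hochberg adjusted p under 0.05. That share was 1.15% of 13772 genes in LK (9.9% with the letter block), 9.57% of 15566 genes in Ter119neg and 24.8% of 15566 in Ter119pos. Each KO library exceeded each WT library for 8 of 9 members in LK, where 11.3% of genes did so, for 9 of 9 in Ter119neg (31.5% of genes) and for 9 of 9 in Ter119pos (35.8%). The LK exception was Bax. Leaving out 1 LK library at a time gave 2 to 7 members called. The count was 2 without WT library A and also 2 on leaving out any 1 KO library. Tnfrsf10b and Eda2r were called in each of these 6 fits.

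**Figure D1:**
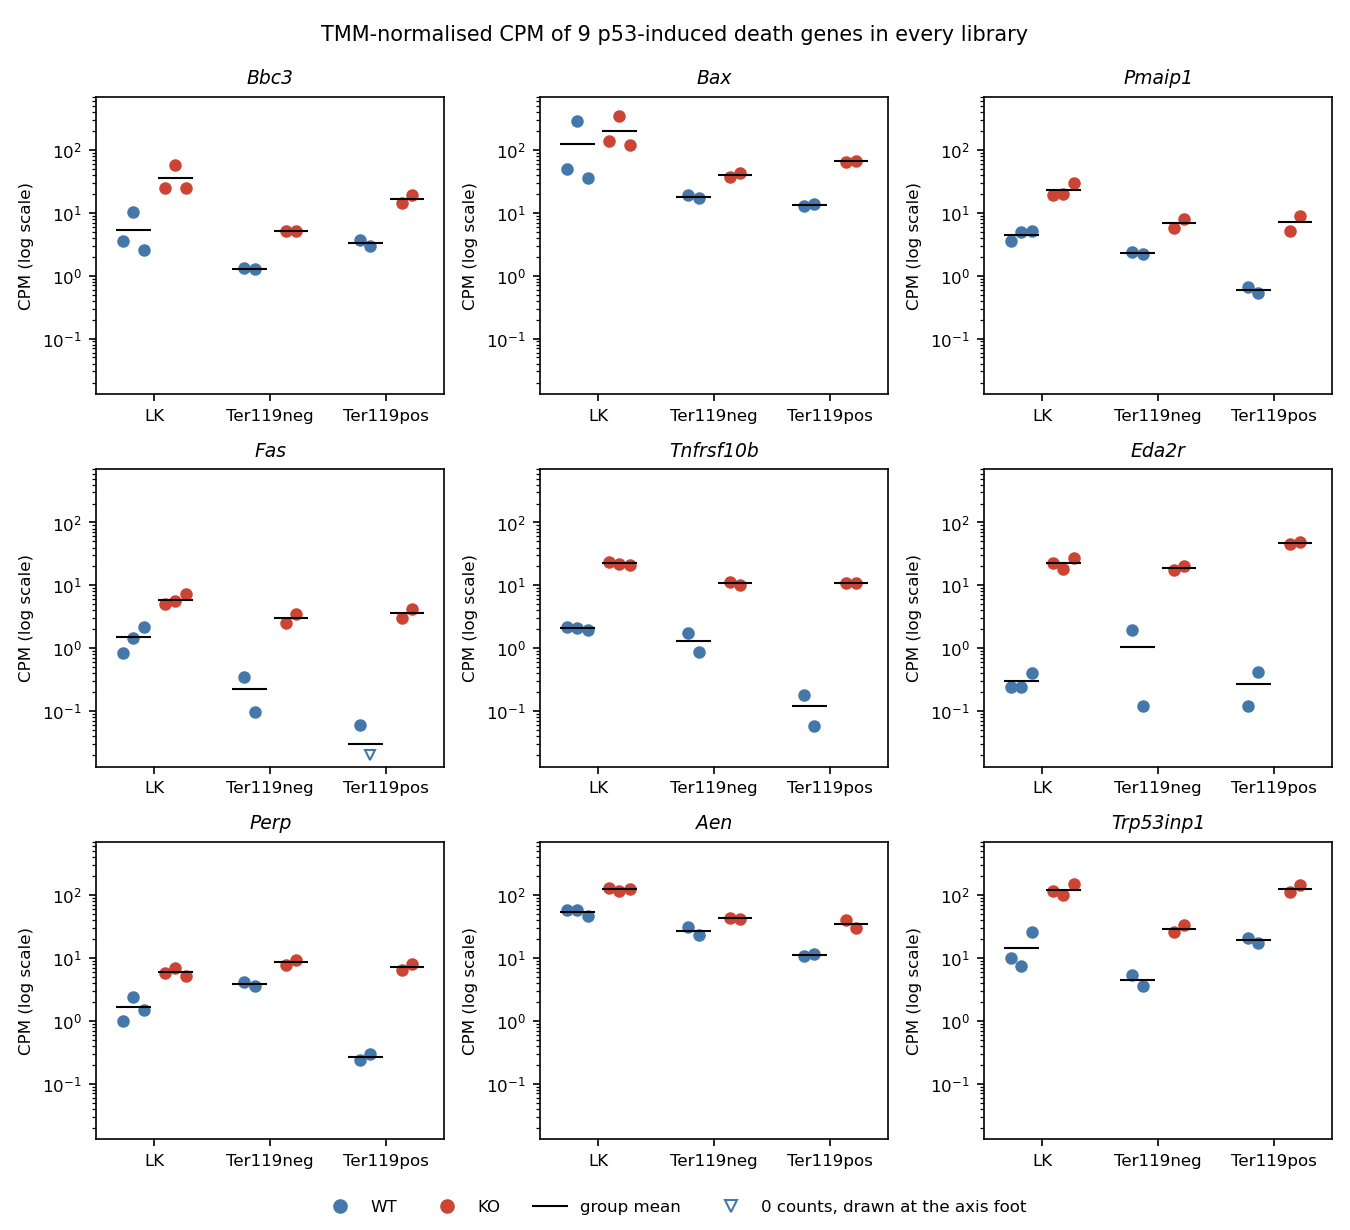
TMM-normalised CPM (log axis) of the 9 genes in every library, 3 per group in LK and 2 per group in Ter119neg and Ter119pos; points are libraries and black lines group means, and the open triangle is the Ter119pos WT library with 0 counts for Fas. WT and KO points do not overlap in any panel except for Bax in LK, where WT library B (291.2 CPM) lies above KO libraries A and C.

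**Figure D2:**
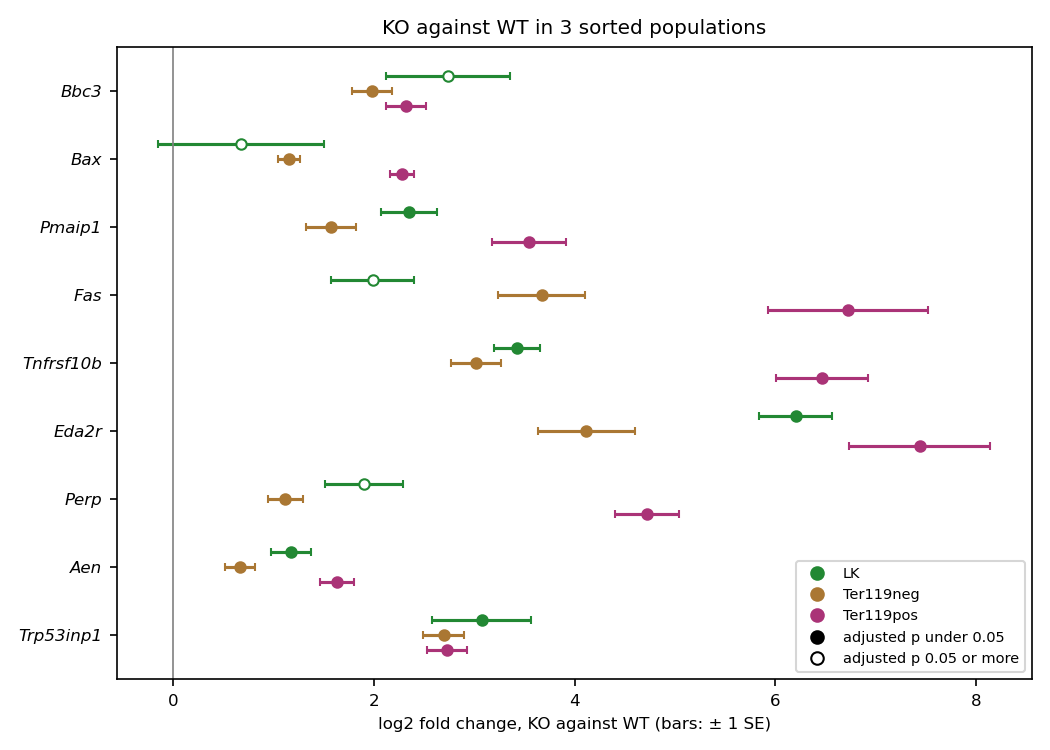
Log2 fold change of KO against WT (horizontal axis) for each gene in LK, Ter119neg and Ter119pos, with bars of 1 SE; filled points have an adjusted p under 0.05 in edgeR's quasi-likelihood test. The lowest fitted value is that of Aen in Ter119neg (0.67) and the highest that of Eda2r in Ter119pos (7.43), and the open points are Bbc3, Bax, Fas and Perp in LK.

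Of the mitochondrial genes, Bbc3, whose BH3-only product Puma binds the survival proteins of the Bcl2 family, was higher in the KO in all 3 populations by 3.96-fold to 6.68-fold. In LK its CPM was 3.52, 10.2 and 2.54 in WT libraries A, B and C and 24.7, 57.0 and 24.9 in the KO libraries of the same letters. The groups did not overlap, and letter B was the highest library of each. The LK log2 fold change of 2.74 (SE 0.62) missed the threshold (edgeR adjusted p = 0.081) and passed it with the letter block (2.85, adjusted p = 0.00059). In Ter119neg the WT libraries A and B gave 1.32 and 1.27 CPM of Bbc3 and the KO libraries 5.22 and 5.05 CPM. In Ter119pos it stood at 3.67 and 3.00 CPM in WT and 14.1 and 19.4 CPM in KO. The log2 fold changes were 1.98 (SE 0.20, edgeR adjusted p = 4.89e-05) in Ter119neg and 2.32 (SE 0.20, adjusted p = 1.21e-06) in Ter119pos. The KO and WT libraries did not overlap in either fraction.

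Pmaip1, coding for the BH3-only protein Noxa that targets Mcl1, rose in every population. Its CPM in LK was 3.60, 4.86 and 5.07 in WT and 19.5, 20.2 and 29.3 in KO libraries A, B and C, with every KO library well above the WT libraries (log2 fold change 2.35, SE 0.28, edgeR adjusted p = 0.0134). In Ter119neg it was 2.35 and 2.20 CPM in WT and 5.75 and 7.85 CPM in KO. In Ter119pos it was 0.661 and 0.530 CPM in WT and 5.11 and 9.06 CPM in KO. The WT libraries were lower in Ter119pos than in Ter119neg, and the rise was 2.98-fold in Ter119neg (edgeR adjusted p = 0.000968) and 11.7-fold in Ter119pos (adjusted p = 5.4e-06). The LK call was lost without WT library A, any 1 KO library or either letter pair B or C (adjusted p up to 0.0935).

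Bax, the effector that perforates the outer mitochondrial membrane, was the most abundant of the 9 in CPM per kilobase in all 6 groups. In the fetal liver its libraries lay close together: 19.1 and 16.9 CPM in Ter119neg WT and 37.8 and 42.6 CPM in Ter119neg KO. In Ter119pos it was 13.1 and 14.1 CPM in WT and 65.3 and 66.3 CPM in KO. Bax rose 2.23-fold in Ter119neg (log2 1.16, SE 0.11, edgeR adjusted p = 3.07e-05) and 4.85-fold in Ter119pos (log2 2.28, SE 0.12, adjusted p = 6.02e-08). In LK it was 50.1, 291.2 and 35.6 CPM in WT libraries A, B and C and 140.4, 344.0 and 118.7 CPM in KO. Letter B held the highest library of both groups, the groups overlapped, and the difference of 0.68 (SE 0.82) did not pass the test (edgeR adjusted p = 0.715).

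Compared within letters, the ratio of KO to WT for Bax in LK was 2.80 for letter A, 1.18 for letter B and 3.33 for letter C. With the letter as a block the log2 fold change was 1.16 (edgeR adjusted p = 0.0287), and with both letter B libraries left out it was 1.64 (adjusted p = 0.0715). For Tnfrsf10b the 3 ratios were 10.9, 10.5 and 10.9, the closest agreement among the 9 genes. The ratios of the other 7 were 7.03, 5.58 and 9.82 for Bbc3, 5.42, 4.16 and 5.78 for Pmaip1, 6.07, 3.81 and 3.30 for Fas, 92.9, 75.1 and 67.8 for Eda2r, 5.76, 2.89 and 3.55 for Perp, 2.22, 2.01 and 2.63 for Aen, and 11.5, 13.2 and 5.91 for Trp53inp1. Letter B held the highest library of both LK groups for 3 of the 9 genes (Bbc3, Bax and Perp), and for 26.7% of all 13772 genes tested. These were also the libraries with the high 18S share, whose part in the Bax and Bbc3 values was not tested.

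**Figure D3:**
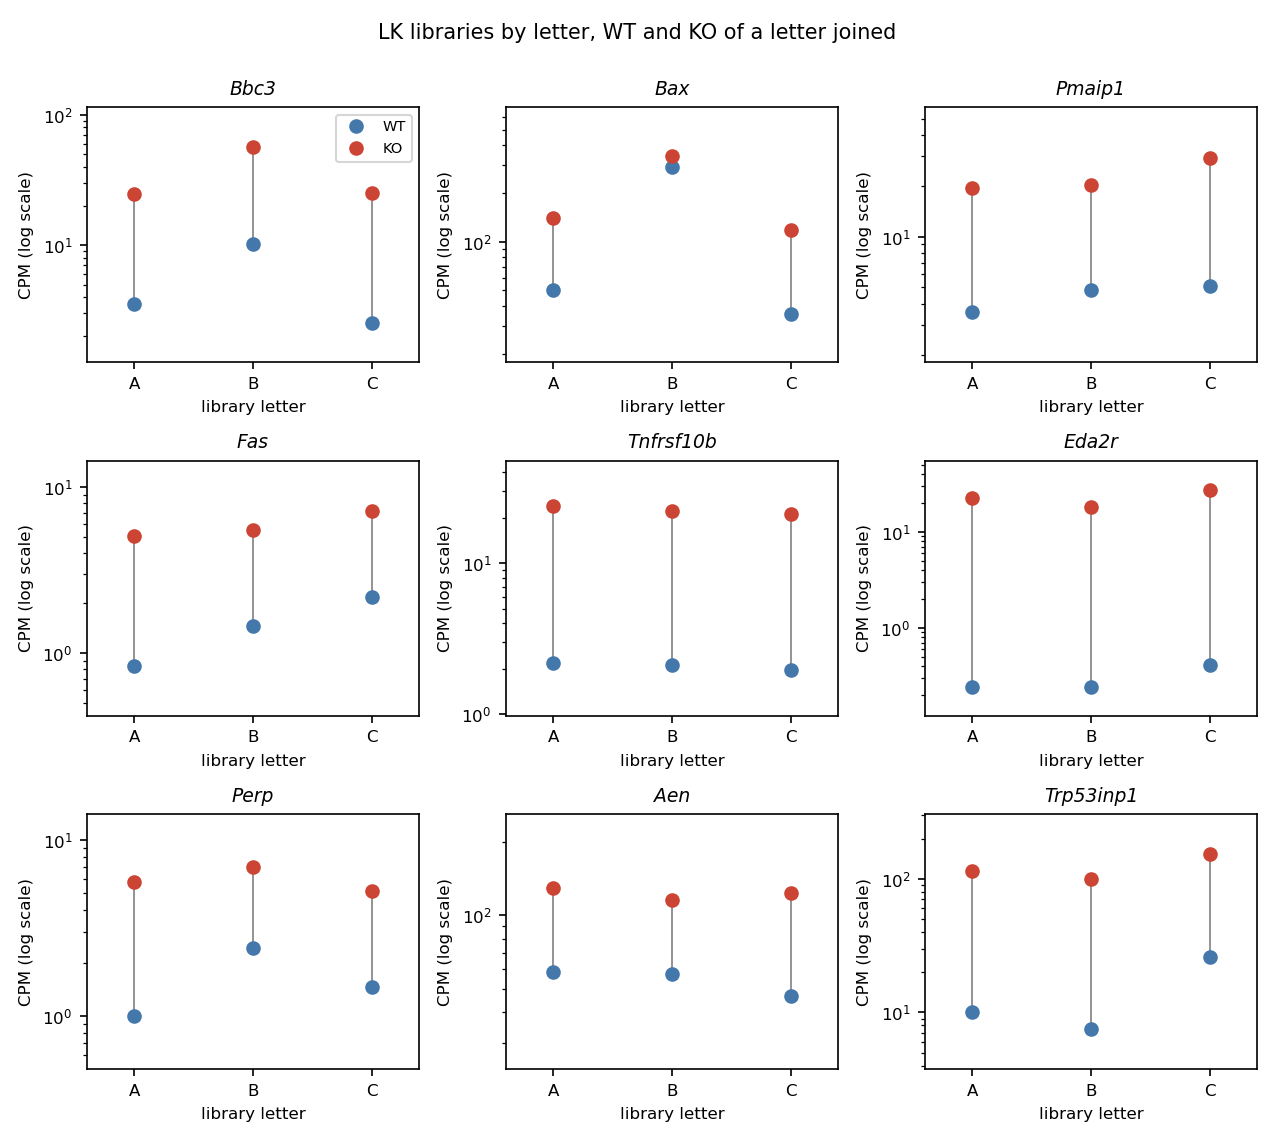
CPM (log axis) of the 9 genes in the 6 LK libraries by letter, with the WT and KO library of a letter joined by a line. KO lies above WT for each gene and letter; the line for Bax in letter B is the shortest (1.18-fold) and those for Eda2r the longest (67.8-fold to 92.9-fold).

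Of the receptors, Fas, the death receptor for Fas ligand, was the least abundant of the 9 per kilobase in each fetal liver group. Ter119neg WT libraries A and B held 0.350 and 0.0955 CPM (18 and 4 counts) and the KO libraries 2.56 and 3.49 CPM (93 and 131 counts). In Ter119pos it had 1 and 0 counts in the WT libraries and 43 and 49 counts in the KO libraries, or 3.01 and 4.23 CPM. WT values in Ter119pos were thus under 0.180 and 0.177 CPM, the level of 3 counts. The ratio of summed counts per library size was 119.5 in Ter119pos (exact 95% binomial interval 20.9 to 4772, counting error only), and Fas rose there (edgeR adjusted p = 1.58e-05) as in Ter119neg (log2 fold change 3.68, SE 0.43, adjusted p = 0.000153). In LK it was 0.839, 1.46 and 2.19 CPM in WT and 5.09, 5.56 and 7.22 CPM in KO, without overlap. Fitted values moved with single WT libraries: 5.80 without library B and 9.74 without library A in Ter119pos (from 6.72), and 4.88 without A and 3.05 without B in Ter119neg. The LK difference of 1.99 (SE 0.41) missed the threshold (adjusted p = 0.0634) and passed with the letter block (2.07, adjusted p = 0.00394).

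Tnfrsf10b, the receptor for the ligand encoded by Tnfsf10, had LK libraries that lay close together within each group. Its CPM was 2.19, 2.11 and 1.95 in LK WT and 23.9, 22.2 and 21.3 in LK KO, a 10.8-fold rise (log2 3.43, SE 0.23, edgeR adjusted p = 0.00128). In Ter119neg it was 1.75 and 0.859 CPM in WT and 11.4 and 10.1 CPM in KO. In Ter119pos 3 counts and 1 count in WT, or 0.180 and 0.0589 CPM, stood against 156 and 126 counts, or 10.9 CPM each, in KO. The fractions differed by 0.01 (SE 0.22) on the log2 scale in KO with TMM scaling and by -1.74 with total count scaling. The rise was 3.02 (SE 0.25, edgeR adjusted p = 1.44e-05) on the log2 scale in Ter119neg and 6.46 (SE 0.46, adjusted p = 3.41e-07) in Ter119pos, where the ratio of summed counts was 91.6 (95% interval 35.4 to 338.5). Without WT library A the fitted value was 3.61 in Ter119neg and 7.43 in Ter119pos.

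Eda2r, a receptor of the tumour necrosis factor superfamily, had the highest fitted fold of the 9 in each population. In Ter119pos that order rests on few WT counts: without WT library A, Fas (9.74) and Tnfrsf10b (7.43) stood above Eda2r (6.81) on the log2 scale. LK WT libraries held 9, 3 and 14 counts (0.244, 0.243 and 0.408 CPM) and LK KO libraries 22.6, 18.3 and 27.7 CPM. Ter119pos WT libraries held 2 and 7 counts (0.120 and 0.412 CPM) and KO libraries 45.7 and 48.4 CPM. The rises were 6.20 (SE 0.36, edgeR adjusted p = 0.00104) on the log2 scale in LK and 7.43 (SE 0.71, adjusted p = 2.59e-06) in Ter119pos. In Ter119neg KO it was 17.4 and 20.6 CPM, while the WT libraries stood apart: library A (mouse 3) held 100 counts, or 1.95 CPM, and library B (mouse 4) held 5 counts, or 0.119 CPM. The Ter119neg log2 fold change was 4.11 (SE 0.48, adjusted p = 0.000151), and it was 7.23 without WT library A and 3.24 without WT library B. In Ter119pos it was 8.56 without WT library B. Ter119neg WT library A was above library B for 9 of the 9 genes, against 51.5% of 15566 genes.

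Perp, Aen and Trp53inp1 belong to neither route alone, and each rose in both fetal fractions. Perp, whose product is a desmosomal membrane protein, was 4.18 and 3.60 CPM in Ter119neg WT and 7.67 and 9.31 CPM in Ter119neg KO. In Ter119pos it was 0.240 and 0.294 CPM in WT (4 and 5 counts) and 6.44 and 7.94 CPM in KO. Perp rose 2.18-fold in Ter119neg (edgeR adjusted p = 0.000816) and 26.3-fold in Ter119pos (adjusted p = 2.64e-07). LK libraries gave 1.00, 2.43 and 1.46 CPM in WT and 5.77, 7.03 and 5.17 CPM in KO, and this difference of 1.91 (SE 0.39) missed the threshold (adjusted p = 0.0627) but passed with the letter block (1.97, adjusted p = 0.00493).

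Aen, the apoptosis-enhancing nuclease, had the highest WT levels after Bax in LK and Ter119neg per kilobase and showed the smallest rises called. LK values were 58.5, 57.6 and 46.7 CPM in WT and 129.8, 115.8 and 123.1 CPM in KO (2.27-fold, edgeR adjusted p = 0.0387). Ter119neg values were 31.1 and 22.9 CPM in WT and 43.5 and 42.3 CPM in KO (1.59-fold, adjusted p = 0.00836). Ter119pos values were 10.9 and 11.7 CPM in WT and 39.6 and 30.5 CPM in KO (3.11-fold, adjusted p = 5.47e-06). The groups did not overlap in any population. The LK call was lost without WT library A or C, without any 1 KO library and without either letter pair B or C (adjusted p up to 0.236), and with total count scaling (0.297), no low count filter (0.0634) or the length trend removed (0.0501). The Ter119neg call was lost without KO library A, KO library B or WT library B (adjusted p up to 0.149), and with total count scaling (0.35, adjusted p = 0.247).

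Trp53inp1, the p53 cofactor that also binds proteins of the autophagy machinery, rose by a like factor in the fetal fractions. It was 5.41 and 3.53 CPM in Ter119neg WT against 25.5 and 32.9 CPM in KO, and 21.0 and 17.4 CPM in Ter119pos WT against 110.1 and 143.7 CPM in KO. The folds were 6.48 (edgeR adjusted p = 1.05e-05) and 6.61 (adjusted p = 4.02e-07). In LK it was 10.01, 7.54 and 25.8 CPM in WT and 115.2, 99.7 and 152.4 CPM in KO, an 8.43-fold rise (adjusted p = 0.0334). WT library C was the highest of the WT libraries and the groups did not overlap. Without WT library C the log2 fold change rose from 3.08 to 3.80. The LK call was lost without WT library A, any 1 KO library or both letter B libraries (adjusted p up to 0.156).

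Whether the KO effect differed between the fetal fractions was tested by the interaction of genotype and fraction. The rise was larger in Ter119pos than in Ter119neg for 6 of 9 genes and smaller for none. Of all 15566 genes, 3002 (19.3%) were called with a larger effect and 3490 with a smaller one. On the log2 scale the difference was 3.60 (SE 0.39) for Perp, 3.45 (SE 0.66) for Tnfrsf10b, 3.32 (SE 1.09) for Eda2r, 1.97 (SE 0.47) for Pmaip1, 1.12 (SE 0.16) for Bax and 0.97 (SE 0.22) for Aen. The edgeR adjusted p-values of these 6 ranged from 3.83e-05 (Perp) to 0.0279 (Eda2r). For Trp53inp1 the difference was 0.03 (SE 0.29, adjusted p = 0.95), for Bbc3 0.34 (SE 0.29, adjusted p = 0.369) and for Fas 3.04 (SE 1.26, adjusted p = 0.0713). The Eda2r difference was 0.32 without Ter119neg WT library A (adjusted p = 0.818), 4.45 without Ter119pos WT library B (adjusted p = 0.0671) 2.70 without Ter119pos WT library A (adjusted p = 0.14), 3.28 without Ter119pos KO library B (adjusted p = 0.0588) and 3.29 with DESeq2 (adjusted p = 0.132), and with the mouse as a block, where WT rests on mouse 4 alone, it was -0.44 (adjusted p = 0.686). The Tnfrsf10b difference was 4.41 without Ter119pos WT library A. With total count scaling the Bax and Aen differences no longer passed (0.55, adjusted p = 0.11, and 0.41, adjusted p = 0.32).

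The fractions were also compared directly within each genotype, first with TMM scaling. In WT, Bbc3 (1.36, SE 0.23) and Trp53inp1 (2.09, SE 0.21) were higher in Ter119pos on the log2 scale. Perp (-3.84, SE 0.32), Tnfrsf10b (-3.43, SE 0.60), Pmaip1 (-1.93, SE 0.38), Aen (-1.26, SE 0.16) and Bax (-0.41, SE 0.12) were lower there. Of all genes 35.9% were higher and 40.4% lower in Ter119pos WT. In KO, Trp53inp1 (2.12, SE 0.19), Bbc3 (1.70, SE 0.18), Eda2r (1.31, SE 0.38) and Bax (0.71, SE 0.11) were higher and no member was lower, where 30.3% of genes were higher and 32.3% lower. The Eda2r call was lost with DESeq2 (adjusted p = 0.342). The 2 comparisons across fractions share no libraries with each other, but mouse 1, 2 and 4 each gave both fractions. With the mouse as a block, Aen was also called lower in Ter119pos KO (-0.30, edgeR adjusted p = 0.00467). In WT, where that fit rests on mouse 4 alone, Bax no longer passed (-0.27, adjusted p = 0.0887) and Eda2r was called higher (1.75, adjusted p = 0.0494).

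These comparisons across fractions depend on the scaling, since TMM factors were 1.36 to 1.97 in Ter119neg and 0.408 to 0.855 in Ter119pos. Within Ter119pos the factors were 0.482 and 0.408 in KO and 0.792 and 0.855 in WT libraries A and B. The gene with most counts was Rn7s1 in these KO libraries (14.1% and 13.7%) and mt-Rnr2 in these WT libraries (11.5% and 12.5%). The part of these genes in the scaling was not tested. With total count scaling, a setting added after the data were seen, the median log2 fold change of all genes between fractions moved from -0.12 to -1.86 for KO and from -0.19 to -1.35 for WT. In KO, 6 members were then called lower in Ter119pos and none higher, with Bax at -1.03, Pmaip1 at -1.70, Fas at -1.49 and Tnfrsf10b at -1.74, while Bbc3 (-0.06) and Eda2r (-0.43) changed sign without passing and Trp53inp1 (0.37) no longer passed. In WT Bbc3 no longer passed (0.19, edgeR adjusted p = 0.517). Relative to the median of all genes, 7 of 9 members were above it in KO and 2 of 9 in WT under either scaling. For KO against WT the same scaling moved the median of all genes to -0.93 from -0.04 in Ter119pos, to -0.30 from 0.01 in Ter119neg and to 0.04 from -0.09 in LK. Genes called then split into 1358 higher and 8402 lower in place of 3865 and 4567 in Ter119pos, 620 and 2932 in place of 1489 and 1486 in Ter119neg, and 117 and 33 in place of 159 and 91 in LK. All 9 members stayed called higher in Ter119pos with it, with a median of 2.64.

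**Figure D4:**
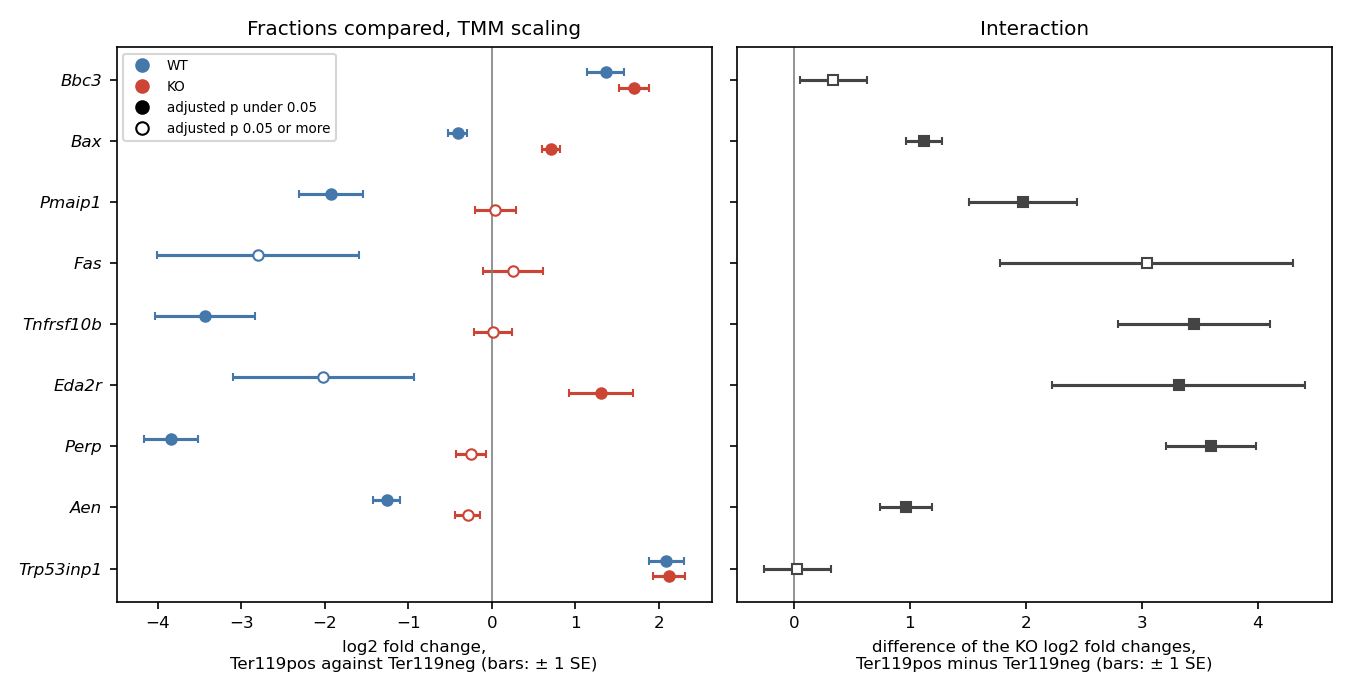
Left, log2 fold change between the fractions (Ter119pos over Ter119neg) for each gene, WT and KO apart, with TMM scaling; right, the difference between the KO effects of the fractions; bars are 1 SE and filled symbols have an adjusted p under 0.05. In KO most genes lie near or above 0, whereas in WT Perp lies at -3.84 and Tnfrsf10b at -3.43; the left panel shifts with the scaling, as given in the text.

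Levels of different genes were compared per kilobase of the longest transcript, and neighbours in the order are said to overlap where they differ by less than the sum of their SDs. Bax led in every group, from 12.3 ± 0.654 CPM per kilobase (SD, n = 2) in Ter119pos WT to 182.8 ± 113 (n = 3) in LK KO. In LK KO, Aen (24.8 ± 1.41), Trp53inp1 (22.5 ± 4.99), Bbc3 (19.6 ± 10.2), Pmaip1 (8.44 ± 2.01) and Tnfrsf10b (7.07 ± 0.420) followed, each overlapping the next, and then Eda2r (4.81 ± 0.992), Fas (3.66 ± 0.690) and Perp (3.07 ± 0.485), each overlapping the next. In LK WT the order below Bax was Aen (10.95 ± 1.32), Bbc3 (2.99 ± 2.30), Trp53inp1 (2.66 ± 1.82), Pmaip1 (1.65 ± 0.293), Fas (0.920 ± 0.415), Perp (0.835 ± 0.374), Tnfrsf10b (0.656 ± 0.0380) and Eda2r (0.0628 ± 0.02003), the lowest. There Bax (114.2 ± 130.5) overlapped Aen, as did the neighbours from Bbc3 to Pmaip1 and from Fas to Tnfrsf10b. Eda2r moved furthest in this order in Ter119pos, from seventh in WT (0.0560 ± 0.0434) to the third in KO (9.90 ± 0.399), where Bbc3 (9.25 ± 2.05) overlapped it. Trp53inp1 was second in both Ter119pos groups, at 3.53 ± 0.472 in WT and 23.4 ± 4.37 in KO. In Ter119neg KO, Aen (8.66 ± 0.172) was followed by Trp53inp1 (5.38 ± 0.962), Perp (4.35 ± 0.594), Eda2r (4.00 ± 0.474) and Tnfrsf10b (3.39 ± 0.290), each overlapping the next, and then by Bbc3 (2.83 ± 0.0663), Pmaip1 (2.49 ± 0.545) and Fas (1.86 ± 0.404), each also overlapping the next. The same order in Ter119neg WT ran from Aen (5.45 ± 1.17) and Perp (1.99 ± 0.210) to Eda2r (0.217 ± 0.272) and Fas (0.137 ± 0.111).

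The other genes of the pathway were taken from lists, and their calls can be set beside all genes tested, of which 0.661% fell in LK (12.8% with the letter block), 9.55% in Ter119neg and 29.3% in Ter119pos. DESeq2 called 539 genes higher and 535 lower of 13772 in LK. Of 15566 genes it called 995 higher and 1245 lower in Ter119neg, and 3424 and 4153 in Ter119pos. No share of all genes is given for an unadjusted p under 0.05, so list counts by that rule cannot be set against a background. Among p53 and its regulators, transcripts of p53 itself and of its inhibitor Mdm2, which is also a p53 target, rose in the fetal liver. Trp53 rose by 0.50 (SE 0.11, edgeR adjusted p = 0.00822) on the log2 scale in Ter119neg and 1.49 (SE 0.12, adjusted p = 6.39e-07) in Ter119pos, and was at 0.44 (SE 0.27, adjusted p = 0.464) in LK. Mdm2 rose by 1.80 (SE 0.17) in Ter119neg and 2.08 (SE 0.17) in Ter119pos and was at 1.37 (SE 0.31, adjusted p = 0.0829) in LK. Of 11 tested genes of this list, edgeR called 0 in LK, where 4 had an unadjusted p under 0.05, DESeq2 called 2 (Foxo3 and Mdm2) and the letter block 4 (also Mdm4 and Ppp1r13b), all higher. In the fetal liver 4 rose in Ter119neg (also Mdm4 and Foxo3), and in Ter119pos 2 rose and 3 fell (Ep300, Foxo3 and Hipk2). Median log2 fold changes were 0.32, 0.40 and -0.23 in LK, Ter119neg and Ter119pos. With total count scaling Mdm2 and Mdm4 alone were called in Ter119neg, both higher, the calls of Trp53 and Foxo3 being lost, and 2 were higher and 8 lower in Ter119pos.

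Of 19 other genes linked to p53 and death, 4 rose in LK (Zmat3, Phlda3, Tnfrsf18 and Dapk1; with the letter block 7 rose and 2 fell), 12 rose and 1 (Shisa5) fell in Ter119neg, and 14 rose in Ter119pos. Zmat3, a zinc finger RNA-binding protein, rose by 5.34 (SE 0.26, edgeR adjusted p = 0.000696) on the log2 scale in LK, 3.30 (SE 0.33) in Ter119neg and 5.60 (SE 0.46) in Ter119pos. Phlda3, an inhibitor of Akt signalling, rose by 5.22 (SE 0.76), 3.32 (SE 0.28) and 6.49 (SE 0.45) in the same order. Its Ter119pos WT libraries held 5 and 6 counts, against 374 and 391 in KO. The median of the 19 was 0.17, 0.57 and 0.84. In Ter119neg 6 of the 19 were higher and Shisa5 lower with total count scaling, and the calls of Apaf1, Casp6, Plk3, Rps27l, Siva1 and Steap3 were lost there. With that scaling 9 of the 19 were higher and 4 lower in Ter119pos, with Apaf1 and Casp6 changing sign (-0.49 and -0.04).

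Calls in the rest of the receptor route can be read beside the shares of all genes. Of all genes 1.15% rose and 0.661% fell in LK (9.9% and 12.8% with the letter block). The shares were 9.57% and 9.55% in Ter119neg and 24.8% and 29.3% in Ter119pos. Leaving out the 3 members, edgeR called 0 of 20 tested genes in LK, where 2 had an unadjusted p under 0.05 (both lower), DESeq2 called 0 and the letter block called 1 higher (Ripk3) and 4 lower (Bid, Fadd, Tnfrsf1a and Tradd). In Ter119neg 2 of 22 fell (Tnfrsf1a, -0.68, SE 0.15, and Tnfrsf1b, -0.93, SE 0.19) and 0 rose, where 2 were higher at an unadjusted p under 0.05 and DESeq2 also called 0 higher. In Ter119pos 4 of 22 rose and 1 (Traf3) fell: the ligand Fasl (2.70, SE 0.51), the necroptosis genes Ripk3 (1.58, SE 0.18) and Mlkl, and the adaptor Tradd. Fasl rested on 6 and 4 counts in the Ter119pos WT libraries against 30 and 21 in KO. The median was -0.25, -0.07 and -0.08. The ligands of the other member receptors did not pass the test: Tnfsf10 was at -0.25 (SE 0.35) in LK, -0.59 (SE 0.33) in Ter119neg and -1.16 (SE 0.93) in Ter119pos, and Eda at -0.50 (SE 0.40), 0.49 (SE 0.32) and 0.88 (SE 0.50). In Ter119neg 4 of the 22 were lower (also Fadd and Tradd) with total count scaling, and in Ter119pos 3 were higher and 12 lower.

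Of the other BH3-only genes and effectors, edgeR called 0 of 8 tested in LK and 0 of 8 in Ter119neg, and DESeq2 also called 0 in each. At an unadjusted p under 0.05 there were 2 lower in LK and 1 higher and 1 lower in Ter119neg, and the letter block called 4 lower in LK (Bad, Bid, Bmf and Bnip3). In Ter119pos Bak1 (1.23, SE 0.15), Bad (1.10, SE 0.17) and Bnip3 (0.83, SE 0.18) rose and Bcl2l11, which encodes Bim, fell, with a median of 0.59. With total count scaling none of the 8 was called higher and 3 were lower in Ter119pos, where Bnip3 changed sign (-0.06), and 2 were lower in Ter119neg (Bad and Bnip3). Of the survival genes of the Bcl2 family, 0 of 5 were called in LK and 0 of 5 in Ter119neg by edgeR, by DESeq2 or at an unadjusted p under 0.05, while the letter block called Bcl2 higher in LK. In Ter119pos Bcl2l1, which encodes Bcl-xL and protects maturing red cells, fell by 0.98 (SE 0.15) on the log2 scale, while Bcl2l2 (1.05, SE 0.25) rose and no longer passed with total count scaling. Bcl2a1b was also called higher there (edgeR adjusted p = 0.0412), on 4 and 1 counts in KO against 0 counts in both WT libraries, so no fold is given. That call was lost with total count scaling, with the length trend removed, with the block by letter within a fraction and without KO library A or either WT library.

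Downstream of mitochondria, edgeR and DESeq2 each called 0 of 16 genes of the apoptosome, caspases and their inhibitors in LK, where 1 was higher and 1 lower at an unadjusted p under 0.05. The letter block called 1 higher (Birc6) and 4 lower (Birc5, Diablo, Endog and Htra2) there. In Ter119neg 3 rose (Apaf1, 0.64, SE 0.11; Casp6, 0.57, SE 0.14; Dffb, 0.94, SE 0.13) and 1 fell (Htra2, -1.03, SE 0.12). In Ter119pos 6 rose and 7 fell. Endog (3.43, SE 0.38), a mitochondrial nuclease, was the highest of those named. It rested on 9 and 3 counts in WT libraries A and B against 49 and 51 in KO. The inhibitor Birc5 (-1.17, SE 0.14) and the initiator Casp2 (-1.09, SE 0.12) were among those that fell. With total count scaling 1 of the 16 was higher (Dffb) and 4 lower (Birc5, Diablo, Endog and Htra2) in Ter119neg. In Ter119pos 1 was then higher and 10 lower, with Apaf1, Casp6 and Dffb changing sign. Of 9 autophagy genes whose products work with Trp53inp1 or beside it, edgeR called 0 in LK and 0 in Ter119neg. At an unadjusted p under 0.05 there was 1 lower in LK (Dram1, which DESeq2 called and the letter block called with Map1lc3a) and 1 higher in Ter119neg, where DESeq2 called 0. In Ter119pos 6 rose and 1 (Ulk1) fell, among them Gabarap (1.67, SE 0.15) and Map1lc3a (1.94, SE 0.35). With total count scaling 2 of these 9 were higher and 3 lower, with Gabarapl1 (-0.22) and Map1lc3b (-0.35) changing sign.

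For each member the gene outside all lists with the nearest pattern was taken by the Euclidean distance over the 3 log2 fold changes of KO against WT, among 7729 genes with a mean of at least 5 CPM in LK and in fetal liver. The closest pairs were Bax with Commd3 (distance 0.167) and Aen with Gramd1a (0.167). The others were Bbc3 with Ercc5 (0.538), Pmaip1 with Itm2a (0.579), Trp53inp1 with Psrc1 (0.602), Fas with 9030617O03Rik (0.645), Tnfrsf10b with Padi3 (0.689) and Perp with Jun (0.729). The largest of the 9 distances was that of Eda2r, whose nearest gene was Plk2 at 1.41. Plk2 was at 7.23 in LK, 3.53 in Ter119neg and 6.66 in Ter119pos.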

How the data were processed

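RNA of 14 libraries from sorted mouse cells was sequenced. Per the labels' protocols, Trizol was used for fetal liver RNA and a Qiagen micro kit for LK RNA, and both went into an Illumina stranded total RNA preparation, with Ribo-Zero depletion stated only for fetal liver. The tools named are STAR 2.5.3 and RSEM, with GRCm38 (mm10) as build, per the submitters' processing notes. RSEM's release was not given in the sources used here, nor were its gene models. Values in the authors' tables are RSEM expected counts per gene, of which 8.81% to 12.02% were not whole, and were rounded.

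The 6 LK and the 8 fetal libraries formed 2 models with a mean per group in edgeR 4.0.16 (R 4.3.3; TMM, filterByExpr, quasi-likelihood F test). Genes were called at a Benjamini-Hochberg adjusted p under 0.05 over all genes tested. All 9 members passed the filter in both models. The SE is the absolute log2 fold change divided by the root of F. CPM use TMM library sizes, and per-kilobase values the longest GENCODE M21 transcript, whose coordinates matched 45143 of 45706 identifiers. The level of 3 counts served as the floor.

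Members and lists were chosen with earlier results of these data known. Named genes were the 9 members, Prmt5, Trp53, Mdm2, the 3 ligands, up to 4 genes per list with the smallest p in each comparison of KO with WT, and 1 nearest gene per member. Genes named as the only members of a list to change or to lose a call, where the rule does not give them (Traf3, Mlkl, Tradd, Ulk1, Bcl2l11, Shisa5, Bid, Fadd, Plk3, Siva1 and Steap3), were chosen after their values were seen. From the list of the apoptosome, caspases and inhibitors, 2 genes are not reported here and are left out of its counts. LK libraries of the same letter deviated together (r = 0.604, 0.719 and 0.73), so the letter was also used as a block. Fetal letters did not (0.00462 and -0.0285). On simulated counts with 100 genes changed 2-fold and 100 changed 4-fold, 2 and 28 were called in LK (13645 genes), 82 and 100 in Ter119neg (14541 genes) and 68 and 94 in Ter119pos (14540 genes). Of the unchanged genes, 2 were called in LK, 21 in Ter119neg and 16 in Ter119pos. Each simulated gene had 1 mean over all libraries of its model, so the simulation held no difference between fractions. Alternatives were RLE size factors, total count scaling (added after the data were seen), no count filter, DESeq2 1.42.0, protein-coding genes only, removal of a transcript length trend, globin genes removed, 1 fraction alone, replicate blocks and leaving out single libraries. A group then left with 1 library is taken to vary as the others do.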

Additional observations from a re-analysis of the deposited data

Results flagged for a closer look

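The effect of Prmt5 loss on 6 death genes differed between the fetal liver fractions by the interaction test in edgeR (Benjamini-Hochberg adjusted p under 0.05), with the rise larger in Ter119pos each time. The differences on the log2 scale were 1.12 for Bax, 1.97 for Pmaip1, 3.45 for Tnfrsf10b, 3.32 for Eda2r, 3.60 for Perp and 0.97 for Aen. A larger effect in Ter119pos was called for 19.3% of all 15566 genes (3002) and a smaller one for 3490. The Eda2r difference was 0.32 without Ter119neg WT library A and -0.44 with the mouse as a block. With total count scaling Bax (0.55) and Aen (0.41) no longer passed. In Ter119pos WT, Tnfrsf10b held 4 counts over both libraries, Eda2r 9, Perp 9 and Pmaip1 20. No library was tested as an outlier in these groups of 2 or 3, but fits were repeated with single libraries left out.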

How the results depend on the processing

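In LK the number of members called was 5; it was 8 with DESeq2, 9 with the letter as a replicate block, 9 with that block and the length trend removed, 3 without both letter B and 3 without both letter C libraries, and 2 to 7 with 1 library left out. The number of LK genes called (250) was 1074 with DESeq2, 474 with the length trend removed, 150 with total count scaling, 3130 with the replicate block, 3747 with the block and the length trend removed, 71 without both letter B libraries, 14 without both letter C libraries, and 33 to 268 with 1 library left out. Ter119neg genes called (2975) ranged from 1450 to 1789 with 1 library left out. Ter119neg and Ter119pos kept 8 or 9 and 9 members called in every alternative; the block by letter within a fraction gave 9 and 9. With the mouse as a replicate block, Eda2r was at -0.44 in the interaction and 1.75 between fractions in WT, where WT rests on mouse 4 alone. Total count scaling turned the direction between fractions in KO for Bbc3 (-0.06), Bax (-1.03), Pmaip1 (-1.70), Fas (-1.49), Tnfrsf10b (-1.74) and Eda2r (-0.43), and in Ter119pos KO against WT for Apaf1 (-0.49), Bnip3 (-0.06), Casp6 (-0.04), Dffb (-0.21), Gabarapl1 (-0.22), Gabarapl2 (-0.74), Map1lc3b (-0.35), Pidd1 (-0.80) and Ppp1r13b (-0.74); it moves all genes together, since it leaves out the TMM factors. Otherwise the cause was not tested. Depth limits Fas and Tnfrsf10b in Ter119pos WT, where 1 and 4 counts leave the fold wide. Among others, Eda2r and Perp (9 counts each), Fasl (10), Phlda3 (11) and Endog (12) also held few counts there.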
